A study of Homo sapiens with 17 samples.

Results

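The alignments described here lie in 3 stretches of the human genome that are known for dense clusters of nuclear transfer RNA (tRNA) genes. On build hg19 they span chromosome 6 from 26280000 to 28960000, chromosome 1 from 161369000 to 161592000 and chromosome 17 from 8022000 to 8131000. Every alignment of 16 to 42 nt on either strand within them was taken, whatever its level or ratio. This gave 43594 distinct alignments of the 14415896 in the whole series, and they held 1742004 reads over 16 libraries. The windows are defined by position, and they were chosen with earlier results of these data known. No hg19 annotation was used here, so that no alignment is assigned to a tRNA gene, an exon or any other gene, and the label of the windows was not checked against one. The chromosome 6 window is known to hold histone and other genes as well.

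The small RNA libraries came from K562, an established erythroleukemia cell line of human origin, carrying a short hairpin RNA, induced by doxycycline (Dox), against Drosha, the nuclear enzyme that cuts microRNA precursors out of their primary transcripts. All libraries share this construct, the untreated one included. Dox at 1 µg/mL, or water in parallel wells, was kept in the medium for 3, 13 or 31 d, and libraries were cut from a gel at 20 to 40 nt. A pair is a Dox library and the water library of its day and number. The series has 2 pairs of 3 d (replicates 1 and 3), 3 of 13 d and 3 of 31 d, per the labels independent biological replicates, plus 1 untreated library that was not analysed here. Each pair has 1 table, which gives the reads of both libraries and their scaled ratio. The sources used here do not say whether the Dox or the water library is the numerator of the ratio. Values below are therefore numerator over denominator, and higher or lower is never meant as an effect of Dox; a common direction of the 8 tables is assumed.

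Transfer RNAs carry amino acids to the ribosome. They are transcribed by RNA polymerase III as precursors whose leader and trailer are trimmed, by RNase P at the 5′ side and by RNase Z at the 3′ side. Cleavage of the mature tRNA, for instance by angiogenin in stressed cells, gives long fragments that end at the anticodon, and shorter cuts give tRNA-derived fragments from the 5′ side, the 3′ side or the precursor trailer. Human tRNA genes are present in many near-identical copies, so that a short read often matches several of them.

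Depth differed between tables. The denominator libraries had 16792268 to 52730703 reads, and the listed numerator reads came to 25956719 to 56159838. An alignment is listed only with at least 1 denominator read, so numerator sums miss alignments without one. Read lengths also differed: the numerator library of 31 d replicate 2 and both libraries of 31 d replicate 3 had nearly no reads of 30 to 42 nt, and the numerator library of 13 d replicate 3 had few. Outside the windows this class held 0.0253% of the numerator reads at 31 d replicate 2 and 1.61% of its denominator reads. At 31 d replicate 3 it held 0.0926% of the denominator reads and 0.199% of the numerator reads. At 13 d replicate 3 it held 7.33% of the denominator reads and 0.710% of the numerator reads.

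Reads in the windows came mostly from short fragments. The class of 16 to 22 nt had 22576 alignments and 82.3% of the reads, that of 23 to 29 nt had 12272 alignments and 15.1%, and that of 30 to 42 nt, the length of fragments cut at the anticodon, had 8746 alignments and 2.55%. Lengths of 17, 21 and 18 nt held 27.1%, 25.9% and 16.7% of all reads. The peak at 21 nt was a single alignment, with 95.6% of the reads of that length, whereas the leading alignment held 54.3% of the 17 nt reads and 56.8% of the 18 nt reads. The gel range may limit what is seen below 20 nt, and the effect of that selection on these shares was not tested.

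**Figure D1:**
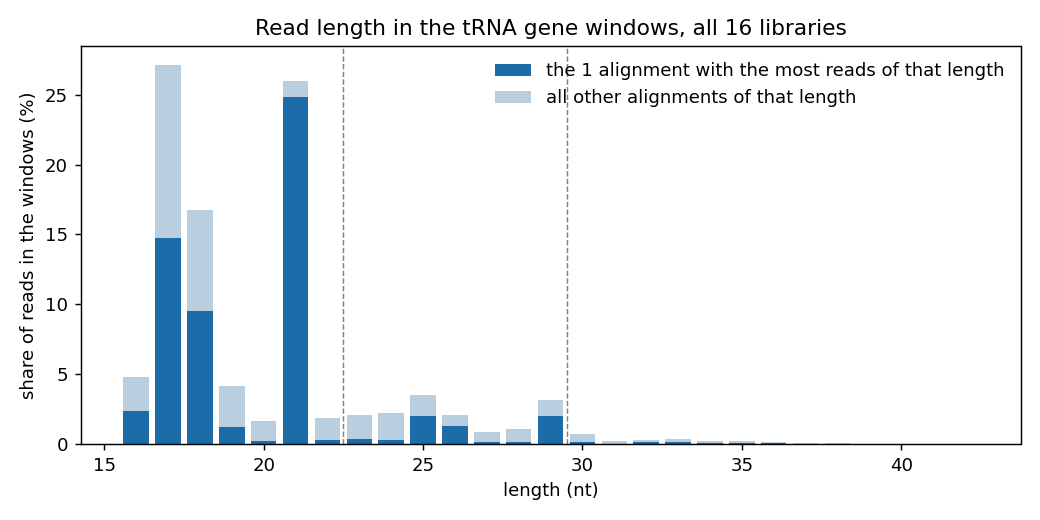
Bars give the share (%) of all reads in the tRNA gene windows at each length in nt, summed over 16 libraries; the dark part is the 1 alignment with the most reads of that length, and dashed lines divide the 3 length classes. Peaks stand at 17, 18 and 21 nt, and the 21 nt peak is nearly all dark.

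A few positions held most of the reads. The chromosome 6 window had 92.1% of them, that of chromosome 17 had 4.31% and that of chromosome 1 had 3.63%. The plus strand had 55.6%. Of the alignments, 24479 had 1 read in all libraries together and 36285 were listed in 1 table only, whereas the 2580 with at least 10 reads held 95.5% of the reads. The 10 alignments with the most reads held 69.6%. Overlapping alignments of 1 strand, each with at least 10 reads, were merged into 600 blocks, and the 3 largest blocks held 67.8% of the reads in the windows.

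The 2 largest blocks were short runs with 1 common 5′ end. The first, chromosome 6 from 27144972 to 27144992 on the minus strand, had 486261 reads in 10 alignments, led by 1 of 17 nt and 1 of 18 nt. Of these reads, 99.9% began at 1 position, and 52.9% shared the commonest 3′ end. The second, chromosome 6 from 26328441 to 26328477 on the plus strand, had 456354 reads, of which 94.7% were the 1 alignment of 21 nt that makes the peak at that length. The third, chromosome 6 from 27656041 to 27656065 on the plus strand, had 238217 reads, with 74.4% at the commonest 5′ end.

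The other windows had leading blocks of their own. On chromosome 17 the block from 8090266 to 8090317, plus strand, had 64966 reads, led by alignments of 25 and 26 nt, and 96.97% of its reads began at 1 position. On chromosome 1 the block from 161369468 to 161369489, minus strand, had 13686 reads, led by 1 alignment of 16 nt, and 97.7% began at 1 position. Fragments of 29 nt led the chromosome 6 block from 27205318 to 27205348, minus strand, with 42376 reads.

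Blocks were sharper at the 5′ than at the 3′ end. In the 50 blocks with the most reads, a median of 81.6% of reads shared the commonest 5′ end and 55.8% the commonest 3′ end. More than 90% of reads shared a 5′ end in 23 of these blocks and a 3′ end in 3. In 43 of the 50, over 50% of reads began at 1 position. The other 7 were ragged, with 25 to 142 alignments and a median of 19 different 5′ ends each, and all 7 lay in the chromosome 6 window. The leading one, from 27114889 to 27114946 on the plus strand, had 12992 reads over 24 different 5′ ends.

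**Figure D2:**
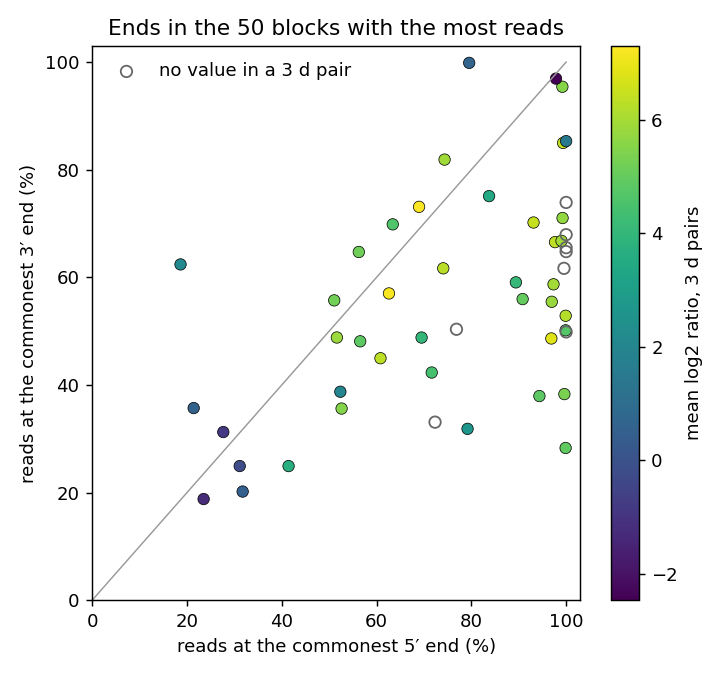
Each point is 1 of the 50 blocks with the most reads; the axes give the share (%) of its reads at the commonest 5′ end (x) and 3′ end (y), and colour gives the mean log2 ratio of the 3 d pairs. Most points lie below the diagonal, which marks equal shares, and open points lack a value in a 3 d pair.

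Some blocks looked like copies of 1 sequence. Identical reads in every library were found for 1 set of only 2 alignments with 13 reads at most. Among alignments of the windows with at least 10 reads, copies were thus hardly counted repeatedly. Positions outside the windows were not compared. Blocks whose leading alignments, with at least 500 reads, had equal length on 1 chromosome, reads within 1.5 times and nearly the same spread over libraries (at most 18% of reads placed differently) were then looked for, by limits set after seeing the data. Evenly spaced positions on the minus strand of chromosome 1 gave 24 nt alignments with 1892, 2189, 2135 and 1736 reads, which end at 161417017, 161424397, 161431808 and 161439188. Their 5′ ends are 7380, 7411 and 7380 nt apart. The same repeat gave alignments of 16 nt with 807, 809, 753 and 759 reads, 7381, 7410 and 7381 nt apart. On chromosome 6 a 23 nt alignment on the plus strand, from 26730811 to 26730833, had 823 reads, and 1 on the minus strand, from 26771266 to 26771288, had 781. Sequences were not read here, so that these are candidate copies, and reads of such copies may have been divided between the positions.

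At 3 d the summed reads of short fragments were higher in the numerator library, beyond the shift of all other alignments of that length. Summed reads of 16 to 22 nt in the windows had log2 ratios of 2.90 and 3.71 in the 2 pairs, a mean of 3.30 ± 0.57 (SD, n = 2 pairs). All other alignments of the class had 1.24 and 1.02. Both pairs in the windows were above both values of the rest, with a mean difference of 2.17 on the log2 scale. No test was made of these sums. Most numerator reads of the class lay in the 3 largest blocks. In replicate 1 these blocks had 30097, 38325 and 36335 numerator reads, beside 116570 in the class. In replicate 3 they had 37708, 4902 and 27705, beside 87177. Without the alignment with the most reads the mean was 3.06. Of the denominator reads these blocks had few: 1034, 524 and 1283 beside 9621 in replicate 1, and 126, 107 and 134 beside 6770 in replicate 3. The excess of the class thus rests largely on these blocks, whose counts include a few longer reads. The sum was not computed without them, so no excess is shown for the other short alignments.

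At 13 d the excess of the summed short class was smaller. The 3 pairs had 0.98, 1.18 and 1.64 (mean 1.27 ± 0.34, SD, n = 3 pairs), against -0.12, -0.31 and 0.56 in all other alignments. Every pair in the windows was above the highest value of the rest. At 31 d the pairs had -0.60, -0.40 and 0.29 (mean -0.24 ± 0.47, SD, n = 3 pairs), against -0.34, -0.23 and 0.09, so that the windows and the rest overlapped. In these sums, which include the 3 largest blocks, the 3 days did not overlap in the windows. Both 3 d pairs lay above the 3 pairs of 13 d, and those above the 3 pairs of 31 d. In all other alignments of the class, both 3 d pairs also lay above every later pair, whereas 13 d and 31 d overlapped.

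Fragments of 23 to 29 nt had the same order of means with a wide spread. The pairs had 1.55 and 3.06 at 3 d (2.30 ± 1.06, SD, n = 2 pairs), 0.37, 1.35 and -0.56 at 13 d (0.39 ± 0.95, SD, n = 3 pairs) and -1.06, -3.38 and 0.09 at 31 d (-1.45 ± 1.77, SD, n = 3 pairs). All other alignments of the class had 0.63 and 0.96 at 3 d, then -0.23, 0.08 and -1.55 at 13 d, and -0.39, -1.55 and 0.12 at 31 d. At 3 d the windows lay above the rest in both pairs, whereas at 31 d they lay below it in every pair, by little in replicate 3.

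Summed over the class, fragments of 30 to 42 nt were not higher at 3 d, although single alignments of this length were. The class's log2 ratios were -0.33 and -1.19 at 3 d, beside -0.30 and -1.39 in the rest. At 13 d they were -1.18, 1.03 and -2.71, beside -0.23, 0.68 and -3.41. At 31 d replicate 1 had -1.60 beside -0.02 in the rest. In the other 31 d pairs the libraries short of long reads leave little to compare: replicate 2 had 5 numerator against 2937 denominator reads in the windows, and replicate 3 had 54 against 69.

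**Figure D3:**
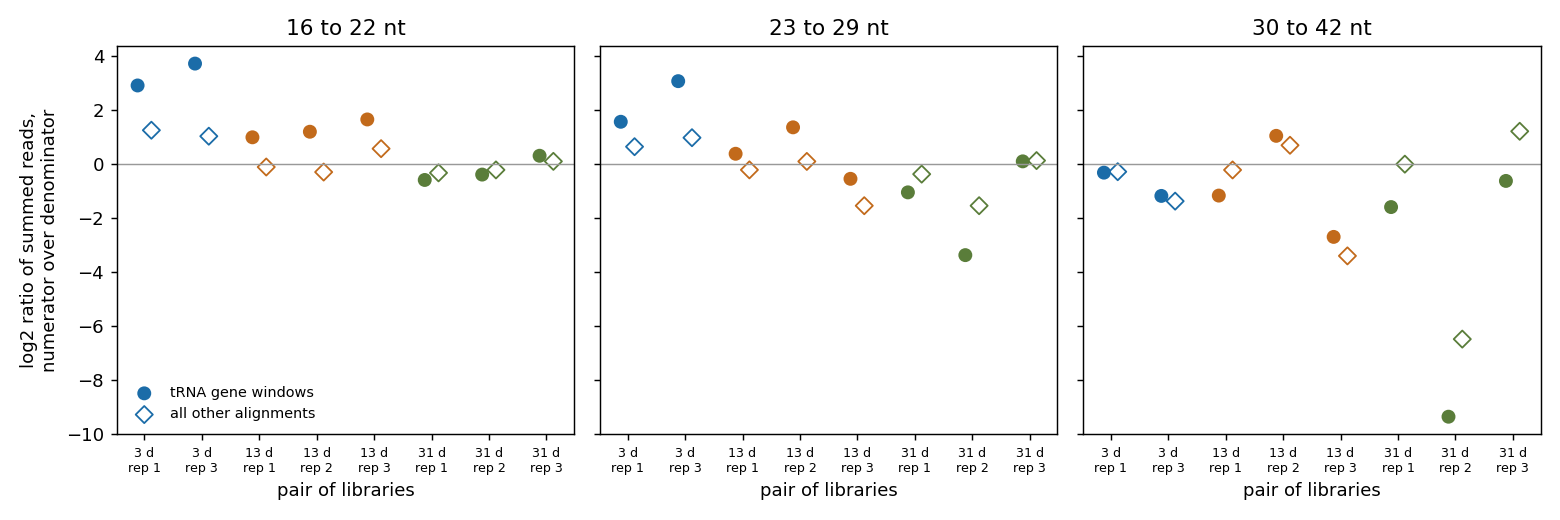
Each point is 1 pair of libraries; the y axis is the log2 ratio of summed reads, numerator over denominator, for alignments of the tRNA gene windows (filled) and for all other alignments of the class (open), in 1 panel per length class. In the class of 16 to 22 nt, both 3 d pairs of the windows stand highest, at 2.90 and 3.71.

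The windows made up a small share of each library. In the denominator libraries they held 0.112% and 0.0706% of reads at 3 d, then 0.0727%, 0.217% and 0.272% at 13 d and 0.188%, 0.472% and 0.185% at 31 d. Of the listed numerator reads they held 0.345% and 0.399% at 3 d, then 0.127%, 0.557% and 0.637% at 13 d and 0.137%, 0.357% and 0.235% at 31 d. The numerator shares at 3 d lay within the range of the later days, and the denominator shares at 3 d were at or near the low end.

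At 3 d the chromosome 17 pairs lay on both sides of those of the other windows. Both chromosome 6 pairs lay above both chromosome 1 pairs, and no test was made between the windows. Over all lengths, chromosome 6 had 2.30 and 3.20, chromosome 1 had 1.71 and 1.76, and chromosome 17 had 1.41 and 5.30. In the chromosome 17 window the short class had -0.46 and -0.65, and the fragments of 23 to 29 nt had 2.48 and 6.51, most of them from the leading block described below. On chromosome 1 the class of 16 to 22 nt had 0.97 and 2.29, and that of 23 to 29 nt had 2.94 and -0.06, on both sides of 0. At 31 d the windows had means over all lengths of -0.34 ± 0.54, -0.67 ± 0.65 and -1.17 ± 1.26 for chromosomes 6, 1 and 17 (SD, n = 3 pairs each), which overlapped.

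Most leading blocks followed the same course. The largest block had log2 ratios of 4.16 and 8.24 at 3 d, then 1.44, 1.49 and 2.90 at 13 d, and -0.37, 1.41 and 1.14 at 31 d. The 21 nt block had 5.49 and 5.54 at 3 d, then 0.42, 0.61 and 1.03 at 13 d, and -0.76, -2.85 and 0.18 at 31 d. Its 3 d pairs were nearly equal, whereas the 3 d pairs of the largest block differed by more than its 13 d and 31 d pairs did.

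The leading blocks of the other windows did likewise. The chromosome 17 block had 3.75 and 7.88 at 3 d, then 0.96, 2.60 and -0.11 at 13 d, and -1.17, -2.79 and 0.43 at 31 d. The chromosome 1 block had 5.07 and 7.61 at 3 d, then 1.14, 1.66 and 2.91 at 13 d, and -0.32, 1.27 and 0.71 at 31 d. In both, the 3 d pairs lay above all pairs of the later days. The third chromosome 6 block had 4.12 and 7.71 at 3 d, and its later pairs lay between 0.16 and 2.15. Over the 20 blocks with the most reads, the median of the blocks' means was 5.51 at 3 d, then 1.06 at 13 d and -0.43 at 31 d, with 19 of the 20 having a value in both 3 d pairs.

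One abundant block lay far below the others at 13 d and 31 d, although its order of days was the same. The block on chromosome 6 from 28357383 to 28357400, minus strand, led by 1 alignment of 17 nt, had 2.23 and -0.98 at 3 d, then -6.35, -5.15 and -3.59 at 13 d, and -6.79, -6.43 and -6.44 at 31 d. Its leading alignment had 325, 15389 and 2702 denominator reads at 31 d and 4, 206 and 48 numerator reads. Unlike most blocks it was sharpest at the 3′ end, shared by 99.9% of its reads.

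Ragged blocks showed less of the 3 d rise. The 7 blocks with at most 50% of reads at 1 5′ end had a median of the blocks' 3 d means of 0.50, between -1.25 and 3.69. The 35 sharper blocks among the 50 with a value in both 3 d pairs had a median of 5.32, between -2.47 and 7.31. The largest ragged block had 1.40 and -0.40 at 3 d, then 0.32, 1.21 and 1.92 at 13 d, and -0.17, 0.46 and 0.12 at 31 d. The division was made after seeing the values and has no test. Among the 20 largest blocks, the sharper block on chromosome 6 from 26573964 to 26573986, minus strand, also broke the order of days, with means of 7.31 at 3 d, then -1.05 at 13 d and 1.02 at 31 d.

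**Figure D4:**
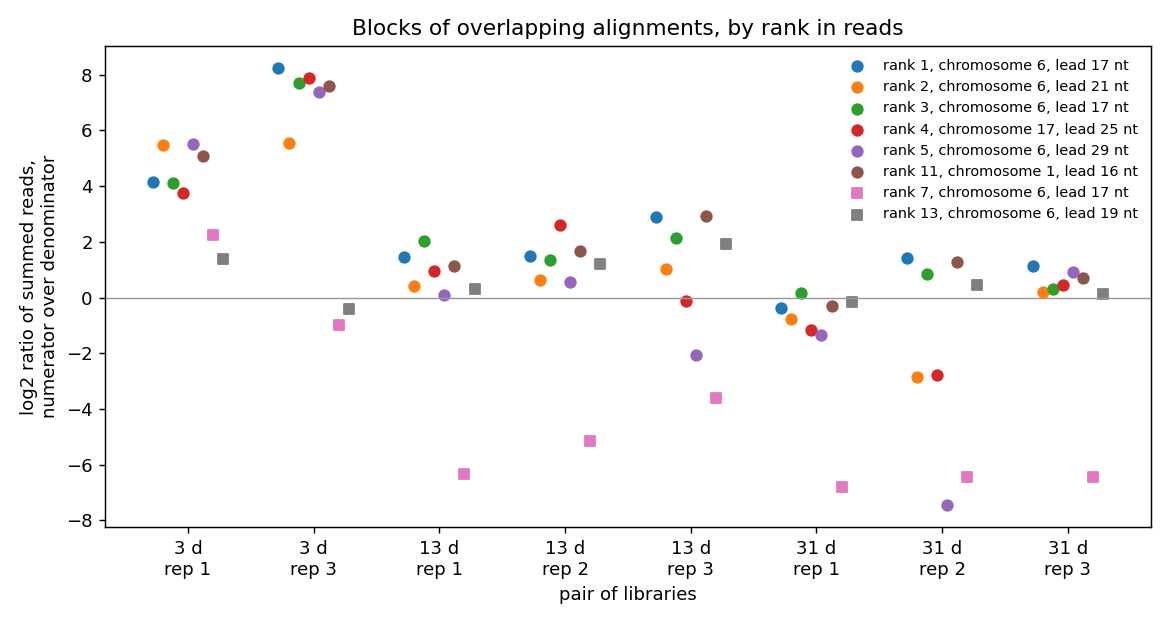
Each point is 1 block in 1 pair of libraries; the y axis is the log2 ratio of the block's summed reads, numerator over denominator. Circles are leading blocks of the 3 windows and squares are the block that fell at 13 d and 31 d (rank 7) and the largest ragged block (rank 13).

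Single alignments were tested with edgeR's quasi-likelihood test on the reads of all 16 libraries, with the pair as a block, over 18668 alignments listed in all 8 tables with at least 10 reads per pair in each; calls are at a Benjamini-Hochberg adjusted p under 0.05. Of the 43594 alignments in the windows, 129 were listed in all 8 tables and 80 were tested. These held 82.6% of the reads in the windows and fell in 33 blocks, so that many overlap and are not independent. By class, 42 were of 16 to 22 nt, 37 of 23 to 29 nt and 1 of 30 to 42 nt.

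At 3 d, 51 of the 80 were called higher and 0 lower, where 14.7% of all tested alignments were called higher. The 51 lay in 24 blocks. The median log2 ratio of the 80 was 5.30, beside 1.35 for all tested alignments, which were thus shifted as a whole on the authors' scale. By class, 31 of 42 alignments of 16 to 22 nt were called higher, beside 20.1% of the others of that class, and 19 of 37 of 23 to 29 nt, beside 2.62%. Without either 3 d pair no alignment in the windows was called at 3 d, and none elsewhere, where the remaining pair is the only one of its day and is taken to vary like those of the other days.

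The minimum of 10 reads was often met by the numerator library at 3 d. In 60 of the 80 the denominator had fewer than 10 reads in at least 1 of the 3 d pairs, so that these were tested only through their numerator reads there, which favours high 3 d ratios. This applied to 41.4% of all tested alignments. Among the 20 alignments with at least 10 denominator reads in both 3 d pairs, 10 were called higher, beside 3.17% of all tested alignments that met this condition, and the median was 4.48 beside 0.03. Both 3 d pairs lay above every later pair in 63 of the 80, beside 36.4% of all tested alignments, and in 13 of these 20, beside 22.6% of the alignments that met the same condition.

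**Figure D5:**
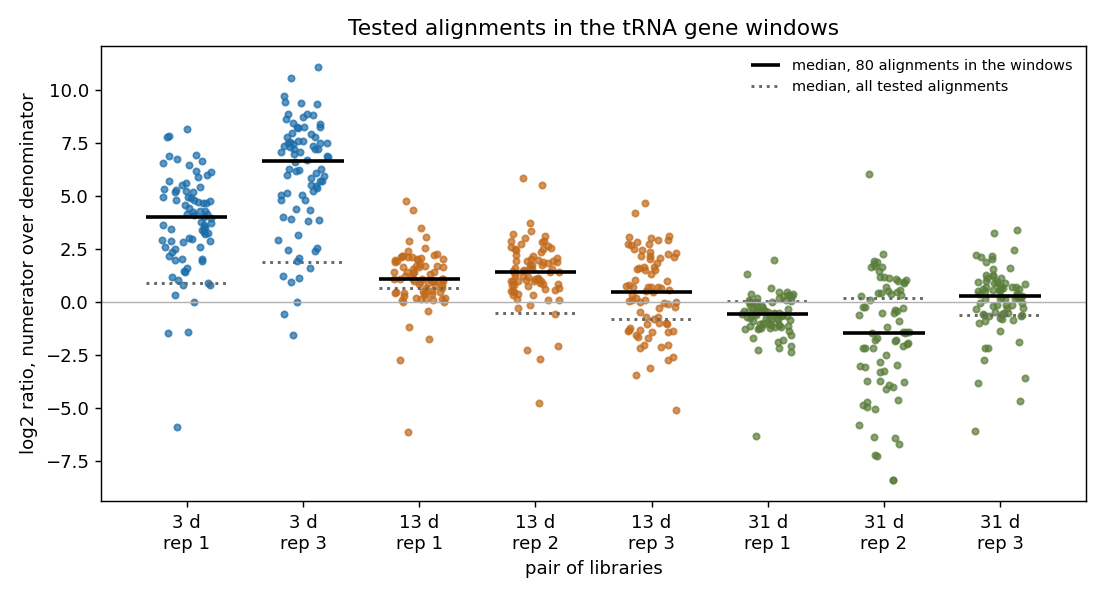
Points are the 80 tested alignments of the tRNA gene windows in each pair of libraries, on a log2 ratio axis, numerator over denominator; values with no numerator reads are not drawn. The black line is their median, 3.99 and 6.64 in the 3 d pairs, and the dotted line the median of all tested alignments, 0.88 and 1.88 in the same pairs.

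The most abundant alignment, 21 nt on chromosome 6 from 26328441 to 26328461, plus strand, held 24.8% of the reads in the windows. Its denominator reads were 435 and 81 at 3 d, then 3600, 8248 and 47093 at 13 d, and 16153, 117296 and 20348 at 31 d. Its numerator reads were 34300 and 4201, then 4550, 9980 and 109506, then 9092, 18480 and 28612. The log2 ratio was 5.66 ± 1.03 (SE) at 3 d, with an edgeR adjusted p of 0.0182, and 0.70 ± 0.69 at 13 d, which was not called (edgeR adjusted p = 0.499). At 31 d it was -1.11 ± 0.75 (edgeR adjusted p = 0.420).

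The alignments of 17 and 18 nt in the largest block, which share the 5′ end at 27144992, moved alike. The 17 nt alignment, from 27144976, had 557 and 73 denominator reads and 17603 and 22425 numerator reads at 3 d, a log2 ratio of 6.27 ± 1.32 (SE, edgeR adjusted p = 0.0189). The 18 nt alignment, from 27144975, had 6.79 ± 1.37 (edgeR adjusted p = 0.0187). At 13 d they had 1.76 ± 0.84 and 2.03 ± 0.87, neither called (edgeR adjusted p = 0.144 and 0.106).

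Longer leading alignments were called higher at 3 d too. The 29 nt alignment on chromosome 6 from 27205320 to 27205348, minus strand, had 34 and 2 denominator reads and 5494 and 1283 numerator reads at 3 d, and a log2 ratio of 7.78 ± 2.06 (SE, edgeR adjusted p = 0.028). At 31 d replicate 2 it had 5752 denominator and 19 numerator reads, in the pair whose numerator library lacked long reads. On chromosome 17 the 25 nt alignment from 8090266 had 6.01 ± 1.53 (edgeR adjusted p = 0.0254) and the 26 nt alignment with the same 5′ end 7.07 ± 1.64 (edgeR adjusted p = 0.0212). The 25 nt alignment had 65 and 37 denominator reads and 1311 and 12416 numerator reads in the 3 d pairs, so that replicate 3 was the higher. The 26 nt alignment had 8 and 9 denominator reads in these pairs. It met the minimum there only through numerator reads, as did the 29 nt alignment in replicate 3. That favours high 3 d ratios, and only the call of the 25 nt alignment was free of it.

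The largest rises at 3 d were in alignments with few denominator reads. The 17 nt alignment on chromosome 1 from 161369473 to 161369489, minus strand, had 1 denominator read in each 3 d pair and 462 and 241 numerator reads, with a log2 ratio of 7.96 ± 1.31 (SE, edgeR adjusted p = 0.0182). The 18 nt alignment on chromosome 6 from 27656042 to 27656059, plus strand, had 41 and 1 denominator reads and 2605 and 2174 numerator reads, with 7.63 ± 1.54 (edgeR adjusted p = 0.0187). Ratios against a single read have a wide counting error. In the 3 d pairs with 1 denominator read the minimum was met only through numerator reads, which favours high 3 d ratios.

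Among alignments of 30 to 42 nt, the longest class, 1 was tested. It was of 32 nt and lay on the minus strand of chromosome 6 from 27198302 to 27198333, with 4 and 1 denominator reads and 473 and 175 numerator reads at 3 d, and a log2 ratio of 6.67 ± 2.11 (SE, edgeR adjusted p = 0.0489). In both 3 d pairs the minimum was met only through numerator reads, which favours a high 3 d ratio. At 31 d replicate 2 the alignment had 129 denominator reads and 0 numerator reads. The 30 nt alignments with the most reads, on chromosome 1 from 161510105 to 161510134 with 2950 reads and on chromosome 6 from 26299979 to 26300008 with 2521, were listed in 6 and 7 tables and not tested. The latter had 1 denominator read in each 3 d pair and 465 and 111 numerator reads, log2 ratios of 8.16 and 6.81.

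At 13 d, 4 of the 80 were called higher, where 7.29% of all tested alignments were, and 2 were called lower, where 13.9% were. The median was 0.96 beside -0.14 for all. The 3 largest rises were of 17 nt on chromosome 6. The alignment from 27198317 to 27198333, minus strand, had 3.53 ± 0.96 (SE, edgeR adjusted p = 0.0251), with 2, 3 and 1 denominator reads and 21, 18 and 29 numerator reads. The alignment from 27183026 to 27183042, plus strand, had 3.21 ± 0.88 (edgeR adjusted p = 0.0250), and the alignment from 28949432 to 28949448, minus strand, had 2.55 ± 0.79 (edgeR adjusted p = 0.0382). In 13 d replicate 1 these alignments had 1 and 3 denominator reads. Each of the named rises thus met the minimum only through numerator reads in at least 1 pair of 13 d, which favours high 13 d ratios. With any 13 d pair left out, 0 of the 80 were called at 13 d. Without replicates 1, 2 and 3, only 3.33%, 0.0375% and 0.0964% of all tested alignments were called then, so the loss was not particular to the windows.

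Both falls at 13 d were also the falls called at 31 d. At 31 d, 0 of the 80 were called higher, where 0.825% of all tested alignments were, and 2 were called lower, where 6.66% were. The 17 nt alignment from 28357383 to 28357399 had -4.55 ± 0.99 (SE, edgeR adjusted p = 0.0137) at 13 d and -6.25 ± 1.04 (edgeR adjusted p = 0.0146) at 31 d. The 21 nt alignment on chromosome 1 from 161447631 to 161447651, plus strand, had -3.01 ± 0.92 (edgeR adjusted p = 0.0365) and -3.24 ± 0.92 (edgeR adjusted p = 0.0483). At 31 d the latter had 57, 59 and 69 denominator reads and 11, 5 and 6 numerator reads, lower in every pair. At 3 d it had 77 and 54 denominator reads and 216 and 292 numerator reads, higher in both. With 31 d replicate 1 or 3 left out 0 were called at 31 d, and without replicate 2, 1 was. Of all tested alignments, 0%, 0.0268% and 2.37% were called without replicates 1, 3 and 2.

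The ratio was lower on the later days than at 3 d, by the test of the difference itself. Between 3 d and 13 d, 35 of the 80 were called lower and 0 higher, where 23.7% of all tested alignments were called lower; the median difference was -4.46, beside -1.08 for all. Between 3 d and 31 d, 55 of the 80 were called lower and 0 higher, where 18.8% were called lower; the median difference was -5.75, beside -1.90. The 55 lay in 27 of the 33 blocks. The minimum at 3 d favours such falls too. Of the 20 alignments with at least 10 denominator reads in both 3 d pairs, 8 were called lower between 3 d and 13 d, beside 13.4% of all tested alignments that met this condition. Between 3 d and 31 d, 11 of the 20 were, beside 11.1%. Both contrasts use the 2 pairs of 3 d. Without 31 d replicate 1, 4 were called lower from 3 d to 31 d, beside 1.08% of all, and without replicate 3, 35 were, beside 5.16%. With the 13 d contrast, 16 to 21 were called lower with 1 pair of 13 d left out, beside 14.7% to 20.2% of all. Without either 3 d pair, 0 were called in both contrasts.

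From 13 d to 31 d, 0 of the 80 were called by edgeR, where 0.0% of all tested alignments were. The unadjusted edgeR p was under 0.05 for 6 of the 80. DESeq2 called 0 of the 80 and 121 of all, with 25 of the 80 at an unadjusted p under 0.05. The share of all tested alignments under that p was not counted, so the 6 and 25 have no background here. The median difference was -1.61, with 78 of the 80 below 0, beside -0.20 and 55.0% below 0 for all tested alignments.

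Scaling moved the sizes and left the direction at 3 d in the windows. With TMM factors in place of the authors' scale, the median of all tested alignments at 3 d fell from 1.35 to 0.79 and that of the 80 was 4.75, with 44 called higher. With each length class centred on its own level, the medians were 0.18 and 3.93, and 51 were called higher. With DESeq2 and its size factors they were -0.06 and 3.90, and 58 were called higher. No alignment in the windows was called lower at 3 d under these settings, whereas over all tested alignments the split of 2738 higher and 74 lower became 2337 and 393 with TMM, 2899 and 1906 with centring and 3058 and 4036 with DESeq2. At 13 d the split in the windows of 4 higher and 2 lower became 13 and 2, 17 and 2, and 30 and 4 under the same settings. The shares of all tested alignments called higher at 13 d were then 13.3%, 17.7% and 21.4%, so that 13 and 17 of the 80 are near the background.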

How the data were processed

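Small RNA reads of 8 pairs of K562 libraries were used, and not the untreated library. The aligner was Bowtie2 2.2.9 and the build hg19 (GRCh37), per the submitters' processing notes. The treatment of reads with several matches is not stated in these sources. From the authors' deposited tables, which have no header, the read counts of both libraries of a pair and the deposited ratio were used; the ratio is the quotient of the reads times 1 constant per table, within floating-point error. The 16 other value columns were not used. Library sizes were the denominator total, and that total divided by the constant for the numerator. In both 3 d pairs this numerator size was far below the listed numerator reads, 42337861 and 29453466. It was slightly below them in 13 d replicate 3 and above them in the other pairs. On a scale of listed reads the 3 d ratios of all alignments would thus be lower.

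edgeR 4.0.16 (R 4.3.3; quasi-likelihood, pair as block, numerator effect per day) was fitted to 18668 alignments with at least 10 reads per pair in all 8 tables; DESeq2 1.42.0 and limma 3.58.1 were alternatives. The scripts were tested on simulated data. The block follows the authors, who formed ratios within pairs. Counts were summed per length class without a test. p-values measure the spread between these pairs; the common biological coefficient of variation was 71.2%. Depth is given in ranges over libraries. SE were derived from the edgeR test, as the size of the log2 ratio divided by the square root of the F statistic. They include the spread between pairs, and no counting intervals are given.

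Named were the 3 alignments with the most reads per length class, the 3 largest rises and falls per day among called alignments with 1 direction in every pair, and the leading block of each window. Other blocks named, and the copy sets, were chosen after their values were seen. Windows, members and lists were chosen with earlier results of these data known. Other settings were TMM factors, centring by length, no minimum or a minimum of 30 reads, no block, leaving out each pair, 1 alignment per copy group and, added after seeing the data, 1 per block and only those with at least 10 denominator reads in both 3 d pairs.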

Additional observations from a re-analysis of the deposited data

Results flagged for a closer look

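Of the named alignments, those below had a log2 ratio that differed between days by edgeR's test of the difference, with an adjusted p under 0.05; all differences were negative, so that the ratio was lower on the later day. From 3 d to 13 d the difference was -4.96 for the 21 nt alignment on chromosome 6 from 26328441, -4.51 and -4.75 for those of 17 and 18 nt at 27144992, -8.25 for that of 29 nt at 27205348 and -5.85 for that of 18 nt from 27656042. It was -6.56 for the 26 nt alignment on chromosome 17 from 8090266 and -5.84 for the 17 nt alignment on chromosome 1 from 161369473. Between 3 d and 31 d the same 7 alignments had -6.76, -5.57, -6.02, -9.60, -7.00, -8.98 and -7.40, in that order.

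Differences between 3 d and 31 d past the threshold were also -6.95 for the 25 nt alignment on chromosome 17 from 8090266, -5.50 for the 17 nt alignment on chromosome 6 from 27183026 and -4.75 for that of 17 nt from 28949432. The alignments that were lower at 13 d and 31 d differed as well: that on chromosome 6 from 28357383 by -5.08 from 3 d to 13 d and -6.77 from 3 d to 31 d, and that on chromosome 1 from 161447631 by -4.63 and -4.85. Those from 161369473, at 27205348 and from 27656042 were among the largest 3 d rises, so their choice favours a fall from 3 d. These alignments, the 26 nt alignment from 8090266 and those from 27183026 and 28949432 had under 10 denominator reads in a 3 d pair. The minimum was met there only through numerator reads, which favours such falls too. None of the calls stood without either 3 d pair. Groups of 2 or 3 pairs are too small to look for an outlying pair.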

How the results depend on the processing

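The rise at 3 d held in direction for all of the 51 called alignments that were tested in each alternative fit of the reads (36 with at least 30 reads); limma on the ratios was compared by counts only, with 62 of 222 called higher at 3 d, beside 2.89% of all 111976 tested there. The calls depended on having both 3 d pairs: 0 with either left out, and at most 64 with another pair left out (31 d replicate 2). At 13 d, where 6 were called, the count was 15 with TMM factors, 19 with centring by length, 3 with at least 30 reads, 34 with DESeq2 and 2 with no minimum, where 0 were higher and 2 lower in place of 4 and 2. The shares of all alignments called at 13 d under these settings were 27.9%, 36.2%, 28.9%, 46.0% and 7.43%, in that order, beside 21.2%. Leaving out 1 pair gave 0 to 9, beside 0.0375% to 29.9% of all. At 31 d, where 2 were called, it was 4 with centring, 1 with no minimum, 1 with at least 30 reads and 8 with DESeq2. The shares of all called were 13.3%, 3.24%, 11.3% and 27.4%, in that order, beside 7.48%. With 1 pair left out 0 to 2 were called at 31 d, beside 0% to 6.57% of all. From 3 d to 13 d, where 35 were called, it was 23 with TMM, 22 with centring and 19 with no minimum. The shares of all called were 21.3%, 24.8% and 8.86%, in that order, beside 24.1%. The 22 of the 80 with centring are thus near the background for both directions together. By direction, 21 were lower, beside 17.6% of all, and 1 was higher, beside 7.22%. With 1 pair of 13 d or 31 d left out it was 16 to 46, beside 14.8% to 27.7% of all. From 3 d to 31 d, where 55 were called, it was 33 with no minimum, beside 2.95% of all in place of 19.1%. With 1 pair of 13 d or 31 d left out it was 4 to 61, beside 1.08% to 26.4% of all. The cause was not tested; fewer alignments met the minimum of 30. With 1 alignment per block, the share called at 31 d was 6.06% in place of 2.5%.

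Without the replicate block, 50 were called at 3 d, 2 at 13 d, 1 at 31 d, 23 from 3 d to 13 d, 49 from 3 d to 31 d and 0 from 13 d to 31 d. The shares of all called were 11.4%, 19.8%, 7.23%, 22.6%, 12.7% and 0%, in that order. Libraries of a pair deviated together at 3 d (r = 0.436) and 13 d (r = 0.194 to 0.406), but at 31 d only in replicate 1 (r = 0.770), with -0.113 and -0.236 in replicates 2 and 3. The denominator library of each of these 2 pairs correlated best with the numerator library of the other, so that the pairing, on which all 31 d ratios rest, was not borne out there. The correlations are across alignments.

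Class sums with no test moved by more than 1 SD at 3 d after subtracting all other alignments: to 2.17 for 16 to 22 nt and 0.079 for 30 to 42 nt. Without the alignment with the most reads of each class, the 3 d sums moved by less. Leaving out 1 of 2 or 3 pairs cannot move a mean by 1 SD, so that setting shows no stability. Taking 1 alignment per copy group could hardly change the sums either, as so few identical copies were found.

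Depth limits single alignments at 3 d, where 60 of the 80 had under 10 denominator reads in a pair.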
